A study of Mus musculus with 12 samples.

Results

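The unfolded protein response and the integrated stress response were described through 37 genes, from the sensors in the membrane of the endoplasmic reticulum (ER) to chaperones, degradation factors and biosynthetic enzymes. The members were taken by gene symbol from the platform's probe annotation, and each is represented by 1 probe, the one with the highest mean over all arrays among its tested probes. A probe was tested where its detection p-value was under 0.05 on at least 4 of the 12 arrays. Of the 37 genes 33 passed, within 20445 tested probes and 11018 genes in all. The other 4, Eif2ak3, Canx, Derl1 and Derl3, fell below that filter.

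The 12 arrays are Illumina mouse bead arrays hybridised with total RNA of primary cardiac fibroblasts, which were isolated from female C57/BL6 mice aged 10 to 16 weeks and grown with fetal calf serum and gentamycin. 4 arrays held cells given 200 nmol/L CCN2 for 48 h, 4 held cells given 500 nmol/L GDF15 for 48 h, and 4 held control cells given neither factor. CCN2 (connective tissue growth factor) is a matricellular protein that cells secrete into the matrix. GDF15 is a secreted cytokine related to TGF-beta. The control samples' own labels give no time, while the treatment protocol speaks of cells without and with a factor together, and the controls are called untreated, with no vehicle named. The doses of both factors differ, so factor and dose cannot be told apart. Nothing in the labels says that arrays of 1 group stem from different cultures or animals. The p-values therefore rest only on the spread among these arrays, and that spread may be technical.

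The unfolded protein response is started when unfolded protein gathers in the ER. Its sensors are IRE1 (Ern1), PERK (Eif2ak3) and ATF6. IRE1 splices the mRNA of the transcription factor XBP1, ATF6 is cut to release a transcription factor of its own, and PERK phosphorylates the translation factor eIF2. Other kinases phosphorylate eIF2 upon amino acid lack, viral RNA or haem lack, and this common branch is the integrated stress response, in which translation falls in general while ATF4 is translated more. Together these branches raise chaperones, folding enzymes, degradation of misfolded ER protein, and amino acid synthesis and uptake. Fibroblasts are secretory cells that pass collagens and other matrix proteins through the ER.

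The number of probes detected per array was 18009 to 18979 for CCN2, 19004 to 19481 for GDF15 and 19211 to 19691 for control. It was lower on the CCN2 arrays than on the control arrays (exact two-sided permutation p = 0.0286, the smallest possible with groups of 4; adjusted p = 0.0429 over 3 comparisons). For GDF15 against control the exact permutation p was 0.2. No pair of arrays held identical values. Precision is limited by having 4 arrays a group. Among the 33 members the standard deviation within groups had a median of 0.13 on the log2 scale and ran up to 0.262 in Manf, against a median of 0.149 over all tested probes. All values below are background-corrected and quantile-normalized log2 intensities, and the tests are limma fits with Benjamini-Hochberg adjustment over all tested probes, with a threshold of 0.05. Values of different probes are not set against each other, since each probe has its own brightness. The marker sums near the end are an exception, and in them the brightest probes weigh most. Cell number and RNA per cell were not measured, so fewer cells of a type and less RNA per cell cannot be told apart.

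After CCN2, 27 of the 33 members were higher than in control and 2 were lower (Atf5 and Sel1l). The members were chosen with earlier results of these data known, so their counts describe this list only. The share called over all tested probes was 24.9% higher and 26.4% lower, or 51.3% in either direction. This share counts probes, while the members are genes. With the mean of all tested probes of a gene, 28 members were higher and 1 lower, against 27.3% and 30.7% of 11018 genes. Manf passed the detection filter only through the CCN2 arrays, where it is high. In a count added after the data were seen, over the 32 members detected on at least 4 of the 8 GDF15 and control arrays, 26 were higher and 2 lower, against 24.4% and 27.9% of the 19300 probes that meet the same condition. The median difference of the members was 0.64 on the log2 scale, against 0.0005 over all tested probes. In 26 members all 4 CCN2 arrays lay above all 4 control arrays and in 2 all lay below, where 23.3% and 25.3% of all tested probes did so. At least 2-fold higher were 6 members, Ddit4, Hyou1, Ppp1r15a, Shmt2, Ern1 and Chac1, against 5.45% of all tested probes, and 0 were at least 2-fold lower, against 6.23%. The 4 members that did not pass were Atf6, Ddit3, Herpud1 and Edem1. The 5 members whose CCN2 and control arrays overlapped were Atf6, Ddit3, Edem1, Sec24d and Phgdh.

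After GDF15, 6 members were higher than in control, namely Ddit4, Ppp1r15a, Hyou1, Sesn2, Chac1 and Asns, and 0 were lower in the limma fit. The share called over all tested probes was 9.34% higher and 10.7% lower, or 20% in either direction. At an unadjusted p under 0.05, 10 members were higher and 1, Creld2, was lower, by only 1 of its 2 tested probes. The share of all tested probes at that unadjusted level is not given. Unadjusted counts here and below are therefore not to be set against the shares called. The median difference of the members was 0.14 on the log2 scale, against -0.0055 over all tested probes. All 4 GDF15 arrays lay above all 4 control arrays in 7 members and below them in 1 member, against 10.1% and 12.7% of all tested probes. At least 2-fold higher were 0 members and at least 2-fold lower 0, against 1.07% and 0.998% of all tested probes. The GDF15 and the CCN2 comparison use the same control arrays, so their values are given side by side below and no overlap between them is read.

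**Figure D1:**
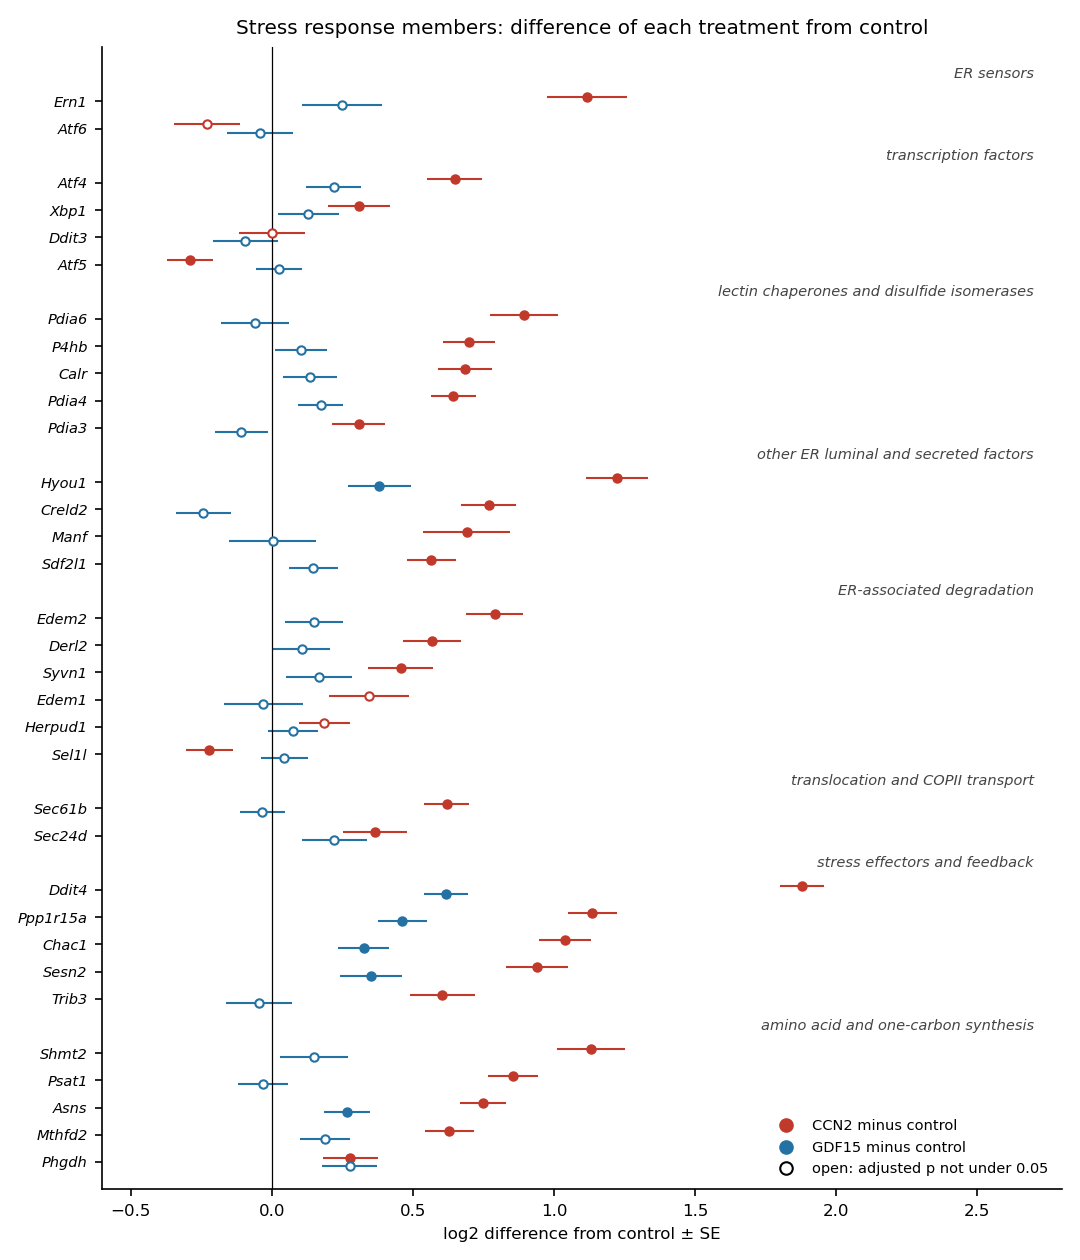
Difference from control on the log2 scale (x axis, with the standard error of the fit) for the 33 measured members, grouped by role; red is CCN2 minus control, blue is GDF15 minus control, and filled circles have an adjusted p under 0.05. The CCN2 differences run between -0.29 and 1.88 with 29 of 33 filled, and the GDF15 differences between -0.24 and 0.62 with 6 of 33 filled.

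Of the ER sensors, Ern1 and Atf6 were measured. Ern1, which encodes the kinase and ribonuclease IRE1, had log2 values of 8.69, 8.96, 8.61 and 8.98 on the CCN2 arrays, 7.71, 7.99, 7.74 and 8.33 on the GDF15 arrays and 7.43, 7.94, 7.62 and 7.78 on the control arrays. All 4 CCN2 arrays lay above every other array, while the GDF15 and control values overlapped. The difference from control was 1.12 (SE 0.14, adjusted p = 3.53e-06) after CCN2 and 0.25 (SE 0.14, adjusted p = 0.25) after GDF15. These values rest on 1 of the 3 Ern1 probes on the array, the only one tested. Another was detected on 1 CCN2, 1 GDF15 and 0 control arrays, and the remaining one on no array.

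Atf6 was dim. It was detected on 0 of 4 CCN2 arrays, 1 GDF15 array and 3 control arrays, which placed it just inside the filter. Its values were 4.25, 4.28, 4.42 and 4.55 on the CCN2 arrays, 4.45, 4.46, 4.79 and 4.55 on the GDF15 arrays and 4.59, 4.91, 4.55 and 4.36 on the control arrays. The groups overlapped, and it did not pass in either treatment (adjusted p = 0.114 for CCN2 and 0.85 for GDF15). Since no CCN2 array detected it, its level there has only a bound, 4.60 at most. The control mean, which includes replicate 4 without detection, was 4.61, so no difference is read.

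Eif2ak3, which encodes PERK, lay just outside the filter, being detected on 3 of 4 CCN2 arrays and on 0 GDF15 and 0 control arrays. Its values of 4.63, 4.37, 4.76 and 5.05 on the CCN2 arrays, 4.31, 4.39, 4.34 and 4.50 on the GDF15 arrays and 4.48, 4.37, 4.44 and 4.43 on the control arrays overlapped between the groups, and it was not tested. Canx, which encodes the lectin chaperone calnexin, and Derl1 and Derl3, which encode derlins of the ER degradation channel, were detected on no array. Canx and Derl3 have 1 probe each, and neither of the 2 Derl1 probes was detected. The proteins were not measured.

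Of the transcription factors, Atf4 and Xbp1 were higher after CCN2, Atf5 was lower and Ddit3 did not pass. Atf4, the main factor of the integrated stress response, had values of 11.78, 11.65, 11.61 and 11.91 on the CCN2 arrays, 11.25, 11.33, 11.12 and 11.54 on the GDF15 arrays and 11.02, 11.10, 11.10 and 11.14 on the control arrays. All CCN2 values lay above all GDF15 and control values, and the lowest GDF15 value lay below the highest control value. Atf4 was higher after CCN2 by 0.65 (SE 0.097, adjusted p = 2.48e-05), and the difference after GDF15 was 0.22 (SE 0.097, adjusted p = 0.132).

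Xbp1, whose spliced mRNA encodes the transcription factor that acts downstream of IRE1, had values of 11.01, 11.01, 11.00 and 11.29 on the CCN2 arrays, 10.66, 10.91, 11.13 and 10.90 on the GDF15 arrays and 10.81, 10.72, 10.60 and 10.96 on the control arrays. CCN2 replicate 4 was high, and the other 3 lay just above the highest control array. Xbp1 was higher after CCN2 by 0.31 (SE 0.11, adjusted p = 0.0267), a call that was lost without CCN2 replicate 4 (0.24, adjusted p = 0.0938), without control replicate 2 (0.29, adjusted p = 0.0634) or 3 (0.25, adjusted p = 0.0893), under median scaling (0.18, adjusted p = 0.257) and with no detection filter (adjusted p = 0.0559). Spliced and unspliced Xbp1 mRNA were not separated by these values.

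Atf5, a factor translated like ATF4 under stress, moved against most of the members. Its values were 10.91, 10.67, 10.84 and 10.91 on the CCN2 arrays, 11.19, 11.16, 11.16 and 11.09 on the GDF15 arrays and 11.10, 11.20, 11.04 and 11.16 on the control arrays. All CCN2 arrays lay below all others, and the GDF15 and control arrays overlapped. The difference from control was -0.29 (SE 0.082, adjusted p = 0.00649) after CCN2 and 0.03 (SE 0.082, adjusted p = 0.866) after GDF15.

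Ddit3, which encodes CHOP, the factor tied to cell death under prolonged ER stress, had values of 8.39, 7.93, 8.24 and 8.15 on the CCN2 arrays, 8.31, 8.04, 8.18 and 7.80 on the GDF15 arrays and 8.29, 8.20, 8.09 and 8.13 on the control arrays. The 3 groups overlapped throughout. Its difference from control was 0.00 (SE 0.12, adjusted p = 0.993) after CCN2 and -0.09 (SE 0.12, adjusted p = 0.643) after GDF15, and its second tested probe passed in neither comparison. Of the 4 transcription factors, 2 were thus higher and 1 lower after CCN2, against 24.9% and 26.4% of all tested probes. The Xbp1 call was lost in the settings named above, and a count of 4 is too small to be read against that share. In the GDF15 comparison limma called 0 of 4, against 20% of all tested probes, with 1, Atf4, at an unadjusted p under 0.05.

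**Figure D2:**
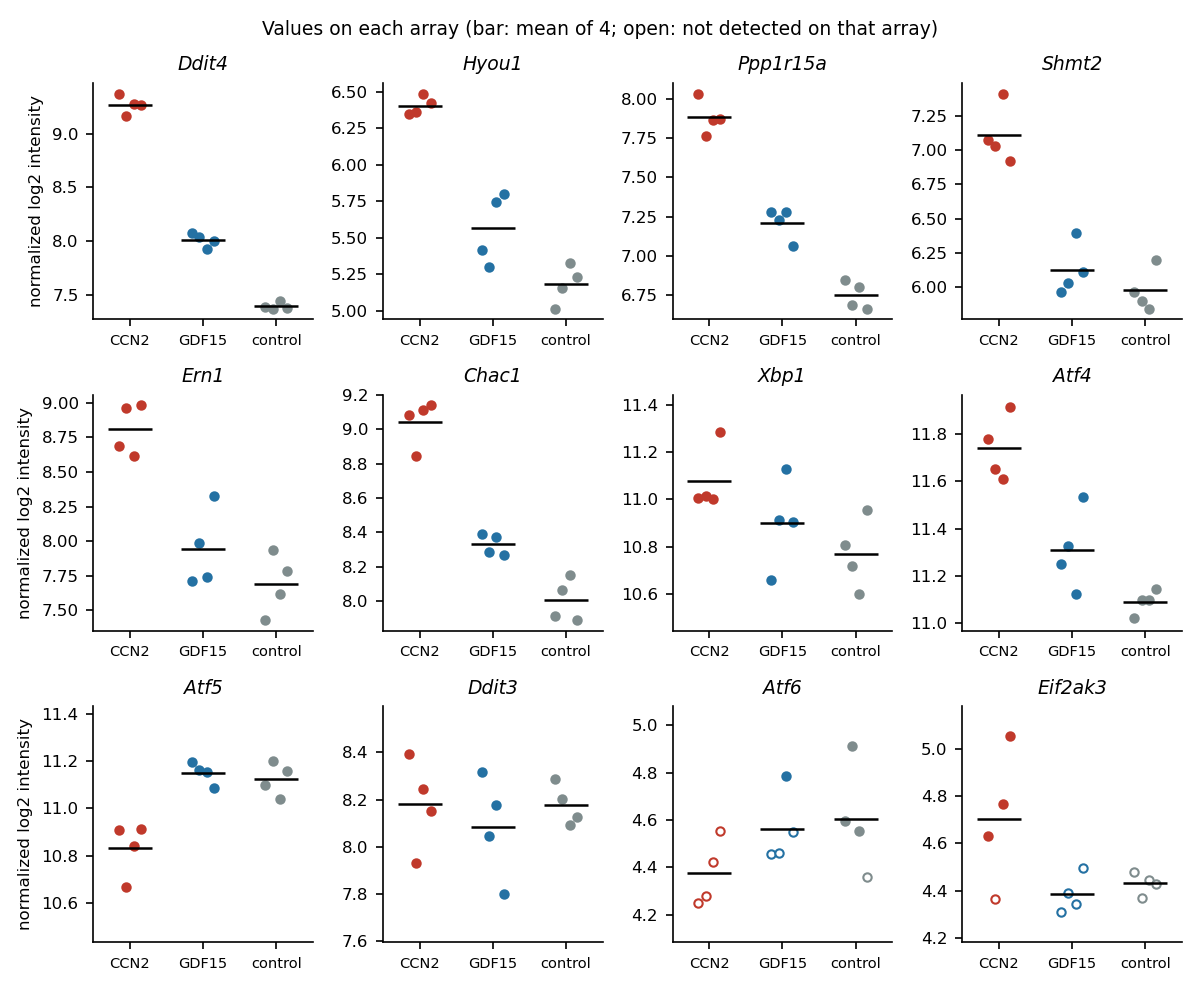
Normalized log2 intensity on each array (y axis, a separate scale for each gene) for the 6 members at least 2-fold higher after CCN2, the other measured sensor and transcription factors, and Eif2ak3; each point is an array, bars are means of 4, and open points mark arrays on which the probe was not detected. For Ddit4 the CCN2, GDF15 and control arrays form 3 separate levels, while for Ddit3 the 3 groups overlap.

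All 5 measured lectin chaperones and disulfide isomerases rose after CCN2, with a median difference of 0.69, with no overlap between CCN2 and control arrays in any of them. Of all tested probes 24.9% were higher, and in 23.3% all CCN2 arrays lay above all control arrays. Pdia6, a disulfide isomerase that also binds the sensors, had values of 8.65, 8.34, 8.49 and 8.28 on the CCN2 arrays, 7.34, 7.49, 7.28 and 7.84 on the GDF15 arrays and 7.64, 7.60, 7.58 and 7.37 on the control arrays. The GDF15 and control arrays overlapped below the CCN2 arrays. The CCN2 difference was 0.89 (SE 0.12, adjusted p = 7.18e-06). P4hb, which encodes the isomerase that is also the beta subunit of collagen prolyl 4-hydroxylase, rose by 0.70 (SE 0.093, adjusted p = 6.21e-06). Calr, the lectin chaperone calreticulin, rose by 0.69 (SE 0.097, adjusted p = 1.34e-05), Pdia4 by 0.64 (SE 0.080, adjusted p = 2.76e-06) and Pdia3, the isomerase that works with calreticulin, by 0.31 (SE 0.094, adjusted p = 0.0115). A further Calr probe was detected on no array and was not tested. After GDF15, limma called 0 of these 5, against 20% of all tested probes, with 1, Pdia4 at 0.17, at an unadjusted p under 0.05. Their GDF15 differences lay between -0.11 and 0.17.

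Of the 4 other luminal and secreted factors, Hyou1, Creld2 and Sdf2l1 rose after CCN2, and Manf is given by its values alone. The share of all tested probes that were higher was 24.9%. Hyou1, which encodes a large chaperone and exchange factor for BiP, had values of 6.35, 6.36, 6.49 and 6.42 on the CCN2 arrays, 5.41, 5.30, 5.74 and 5.80 on the GDF15 arrays and 5.01, 5.16, 5.32 and 5.23 on the control arrays. The CCN2 arrays stood clear of all others, and the lowest GDF15 array lay below the highest control array. Hyou1 was higher after CCN2 by 1.22 (SE 0.11, adjusted p = 6.36e-08) and after GDF15 by 0.38 (SE 0.11, adjusted p = 0.0221).

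Creld2, which encodes an ER protein with disulfide isomerase activity, had values of 9.39, 9.30, 9.68 and 9.40 on the CCN2 arrays, 8.36, 8.29, 8.49 and 8.59 on the GDF15 arrays and 8.60, 8.77, 8.66 and 8.66 on the control arrays. The CCN2 arrays were the highest and all 4 GDF15 arrays lay below all control arrays. The CCN2 difference was 0.77 (SE 0.097, adjusted p = 3.66e-06) and the GDF15 difference -0.24 (SE 0.097, adjusted p = 0.0964). Without GDF15 replicate 4 the GDF15 difference passed the threshold downward, at -0.30 (adjusted p = 0.0476). The second tested probe of Creld2 was at 0.76 after CCN2 (adjusted p = 1.69e-05). After GDF15 it was at -0.07 (adjusted p = 0.715) with overlapping arrays, so the lower GDF15 values rest on 1 probe.

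Manf, a secreted neurotrophic factor that is retained in the ER at rest, was dim, being detected on 4 CCN2, 1 GDF15 and 2 control arrays. Its values were 5.36, 5.13, 5.28 and 5.55 on the CCN2 arrays, 4.47, 4.43, 4.53 and 5.15 on the GDF15 arrays and 4.65, 4.99, 4.49 and 4.43 on the control arrays. The CCN2 arrays all lay above the control arrays, and GDF15 replicate 4 stood apart from its group and overlapped the CCN2 arrays. Its CCN2 mean lay 0.69 above control, which is a description only, since the probe met the filter through the CCN2 arrays. Sdf2l1, a partner of the ER J-domain proteins, was higher after CCN2 by 0.57 (SE 0.087, adjusted p = 3.09e-05).

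Of 6 measured members of ER-associated degradation, 3 were higher and 1 was lower after CCN2. These are 50% and 16.7%, against 24.9% and 26.4% of all tested probes. The lower call, of Sel1l, did not hold in every setting. The 2 that did not pass, Edem1 and Herpud1, had means above control. Edem2, a mannosidase that trims glycans of misfolded proteins, was higher by 0.79 (SE 0.10, adjusted p = 4.52e-06) and gave the same call with all 4 of its tested probes. Derl2, a derlin, was higher by 0.57 (SE 0.10, adjusted p = 0.000166), and Syvn1, the ubiquitin ligase HRD1 of the degradation channel, by 0.46 (SE 0.12, adjusted p = 0.00322). Derl2 did not pass under median scaling (0.29, adjusted p = 0.0851).

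Sel1l, the adaptor that holds the HRD1 ligase in place, had values of 9.19, 9.38, 9.24 and 9.27 on the CCN2 arrays, 9.45, 9.57, 9.49 and 9.63 on the GDF15 arrays and 9.46, 9.45, 9.40 and 9.64 on the control arrays. All CCN2 arrays lay below all control arrays by its brightest probe, and the difference was -0.22 (SE 0.084, adjusted p = 0.0367). This call was lost when any of 6 arrays was left out (control replicates 1, 2 and 4 and CCN2 replicates 1, 3 and 4, adjusted p between 0.0522 and 0.127) and with the mean of its 3 tested probes (-0.08, adjusted p = 0.436), whose differences ran between -0.22 and 0.13.

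Herpud1, a ubiquitin-domain protein of the same complex, had values of 11.00, 10.93, 11.10 and 11.11 on the CCN2 arrays, 10.89, 10.87, 10.79 and 11.16 on the GDF15 arrays and 10.89, 10.84, 10.79 and 10.87 on the control arrays. All 4 CCN2 arrays lay above the control arrays, yet the difference of 0.19 (SE 0.089, adjusted p = 0.0925) did not pass. Edem1, a relative of EDEM2, was at 0.34 (SE 0.14, adjusted p = 0.0508) by the only 1 of its 3 probes that was tested. Both calls turned with the setting, as Edem1 passed in 5 of the other settings tried and with any of 4 arrays left out (control replicate 4, CCN2 replicate 2, GDF15 replicates 1 and 4), with differences of 0.23 to 0.48. Herpud1 passed in 3 other settings and without GDF15 replicate 4, with differences of 0.17 to 0.19. In the GDF15 comparison limma called 0 of the 6 degradation members, against 20% of all tested probes, and 0 had an unadjusted p under 0.05.

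Of the translocation and vesicle transport members, Sec61b, a subunit of the channel through which proteins enter the ER, was higher after CCN2 by 0.62 (SE 0.079, adjusted p = 3.93e-06), with no overlap of the arrays. Sec24d, a cargo adaptor of COPII vesicles, was higher by 0.37 (SE 0.11, adjusted p = 0.013) with overlapping arrays. That call was lost under median scaling (0.15, adjusted p = 0.365), with the mean of its probes (0.17, adjusted p = 0.0795), without control replicate 1 (0.30, adjusted p = 0.0525) and without CCN2 replicate 4 (0.29, adjusted p = 0.0504). After GDF15 limma called 0 of these 2 members, against 20% of all tested probes, and 0 had an unadjusted p under 0.05.

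The stress effectors and feedback regulators were the group with the largest median difference of the 8 role groups after CCN2 (1.04, all 5 higher) and after GDF15 (0.35, 4 of 5 higher). Of all tested probes 24.9% were higher after CCN2 and 9.34% after GDF15. Ddit4, which encodes REDD1, an inhibitor of mTORC1, had values of 9.37, 9.16, 9.28 and 9.27 on the CCN2 arrays, 8.08, 8.04, 7.92 and 8.00 on the GDF15 arrays and 7.38, 7.37, 7.44 and 7.37 on the control arrays. The 3 groups were fully separate, with GDF15 between CCN2 and control. Ddit4 was higher by 1.88 (SE 0.077, adjusted p = 1.75e-12) after CCN2 and by 0.62 (SE 0.077, adjusted p = 1.53e-05) after GDF15.

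Ppp1r15a, which encodes GADD34, the phosphatase subunit that removes the phosphate from eIF2, had values of 8.03, 7.77, 7.86 and 7.87 on the CCN2 arrays, 7.28, 7.23, 7.28 and 7.06 on the GDF15 arrays and 6.85, 6.68, 6.80 and 6.66 on the control arrays. The groups were again fully separate. The difference was 1.14 (SE 0.087, adjusted p = 7.29e-09) after CCN2 and 0.46 (SE 0.087, adjusted p = 0.000936) after GDF15. Ddit4 and Ppp1r15a were the members whose GDF15 call held under every setting and every left-out array tried.

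Chac1, a glutathione-degrading enzyme downstream of ATF4, had values of 9.08, 8.85, 9.11 and 9.14 on the CCN2 arrays, 8.39, 8.29, 8.37 and 8.27 on the GDF15 arrays and 7.91, 8.07, 8.15 and 7.89 on the control arrays. No groups overlapped, and the differences were 1.04 (SE 0.091, adjusted p = 3.75e-08) after CCN2 and 0.33 (SE 0.091, adjusted p = 0.017) after GDF15. Sesn2, which encodes sestrin 2, a sensor of leucine upstream of mTORC1, had values of 6.50, 6.49, 6.54 and 6.85 on the CCN2 arrays, 5.84, 6.18, 6.15 and 5.83 on the GDF15 arrays and 5.58, 5.78, 5.71 and 5.54 on the control arrays. CCN2 replicate 4 was high within its group, and no groups overlapped. The Sesn2 differences were 0.94 (SE 0.11, adjusted p = 1.37e-06) after CCN2 and 0.35 (SE 0.11, adjusted p = 0.0322) after GDF15. The second tested probe of Sesn2 was detected on 3 CCN2, 1 GDF15 and 0 control arrays, so it gives only a bound in control and is not read here. Trib3, a pseudokinase that restrains ATF4 and CHOP, was at 0.60 (SE 0.12, adjusted p = 0.000299) after CCN2 and -0.05 (SE 0.12, adjusted p = 0.838) after GDF15, and its 3 tested probes gave the same call.

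All 5 members of amino acid and one-carbon synthesis were called higher after CCN2, against 24.9% of all tested probes. The call of Phgdh, whose CCN2 and control arrays overlapped, was lost in some settings, given below. Shmt2, the mitochondrial enzyme that takes a one-carbon unit from serine, had values of 7.07, 7.03, 7.41 and 6.92 on the CCN2 arrays, 5.97, 6.03, 6.39 and 6.11 on the GDF15 arrays and 5.96, 5.90, 5.84 and 6.20 on the control arrays. The CCN2 arrays lay above all others while the GDF15 and control arrays overlapped, and the difference was 1.13 (SE 0.12, adjusted p = 4.22e-07) after CCN2 and 0.15 (SE 0.12, adjusted p = 0.444) after GDF15. Psat1, the aminotransferase of serine synthesis, rose by 0.85 (SE 0.089, adjusted p = 3.28e-07) after CCN2 and was at -0.03 after GDF15 (adjusted p = 0.849). Mthfd2, the mitochondrial folate enzyme next to SHMT2, rose by 0.63 (SE 0.088, adjusted p = 1.12e-05).

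Asns, asparagine synthetase, had values of 11.47, 11.68, 11.61 and 11.69 on the CCN2 arrays, 11.13, 11.20, 11.10 and 11.09 on the GDF15 arrays and 10.79, 10.87, 10.99 and 10.82 on the control arrays. The groups did not overlap by the probe used, and the difference was 0.75 (SE 0.082, adjusted p = 6.26e-07) after CCN2 and 0.27 (SE 0.082, adjusted p = 0.0284) after GDF15. Another tested Asns probe was at 0.06 after GDF15 (SE 0.13, adjusted p = 0.813), with overlapping arrays. The remaining one was at 0.34 (SE 0.090, adjusted p = 0.0124). Phgdh, which starts serine synthesis, had values of 7.58, 7.37, 7.76 and 7.79 on the CCN2 arrays, 7.60, 7.52, 7.66 and 7.72 on the GDF15 arrays and 7.36, 7.42, 7.23 and 7.37 on the control arrays. Its mean was nearly the same in CCN2 and GDF15 arrays, with differences from control of 0.28 (SE 0.098, adjusted p = 0.0241) and 0.28 (SE 0.098, adjusted p = 0.0565). The CCN2 call for Phgdh was lost under median scaling (0.002, adjusted p = 0.993), without control replicate 3 (adjusted p = 0.0728) and without CCN2 replicate 3 (adjusted p = 0.0777) or 4 (adjusted p = 0.0823). Its GDF15 difference passed in 6 of the other settings (adjusted p between 0.0343 and 0.0454) and without CCN2 replicate 2 (adjusted p = 0.0318).

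The GDF15 calls of Hyou1, Chac1, Sesn2 and Asns were each lost with at least 1 array left out. Without control replicate 1 only 2 of the 6 passed, and without control replicate 4 only 3 did. Under median scaling 3 of the 6 passed, with Hyou1 at 0.32 (adjusted p = 0.109), Chac1 at 0.26 (adjusted p = 0.152) and Sesn2 at 0.27 (adjusted p = 0.166). That scaling sets the median of each array equal and moved the median of all tested probes to -0.17 for CCN2 and -0.052 for GDF15 against control. The member median was then 0.45 for CCN2 and 0.096 for GDF15, and 23 members were higher and 2 lower after CCN2, against 14% and 38.4% of all tested probes. Over all tested probes the share of calls that were higher after CCN2 was 26.7% under median scaling and 48.6% under quantile normalization.

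**Figure D3:**
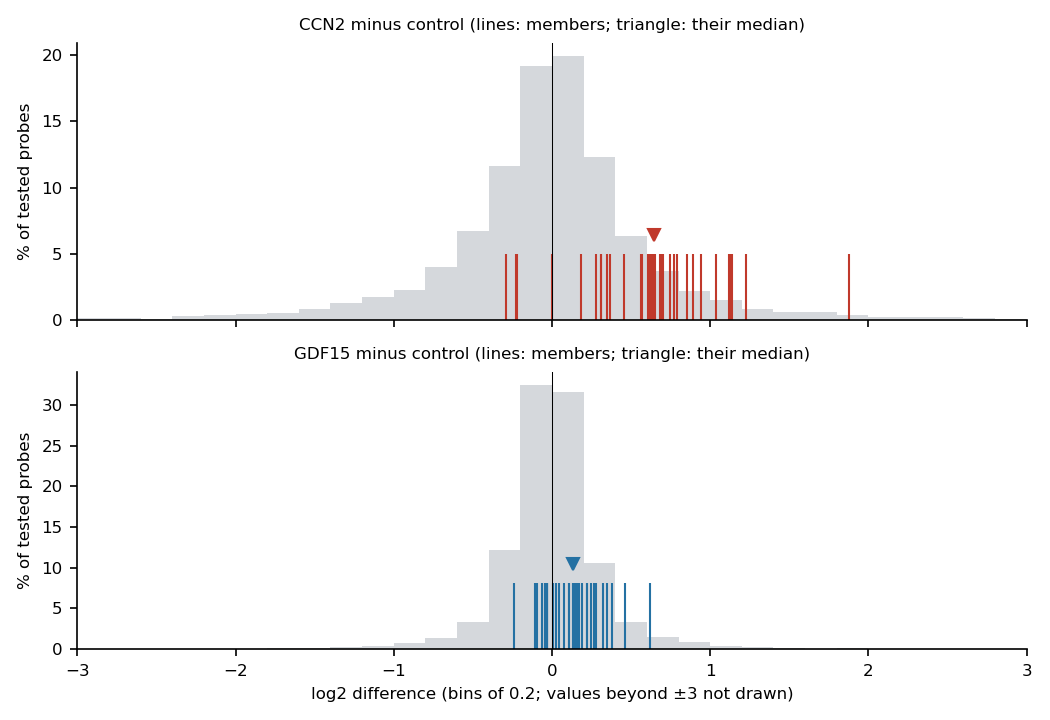
Distribution of the log2 difference from control over 20445 tested probes (grey, bins of 0.2, y axis in % of probes, values beyond 3 not drawn), with each of the 33 members as a vertical line and their median as a triangle, for CCN2 (top) and GDF15 (bottom). The member median stands at 0.64 for CCN2 and 0.14 for GDF15, against 0.0005 and -0.0055 for all tested probes.

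The treatments were also set against each other. In GDF15 cultures relative to CCN2 cultures, 24 members, Manf among them, were lower and 2, Atf5 and Sel1l, were higher. Over all tested probes 20.9% were lower and 20.8% higher, or 41.7% in either direction. Over the 32 members without Manf 23 were lower and 2 higher. Of the 19300 probes detected on at least 4 of the 8 GDF15 and control arrays, 20.4% were lower and 22.1% higher. The median difference was -0.48 on the log2 scale, against -0.0033 over all tested probes. All 4 GDF15 arrays lay below all 4 CCN2 arrays in 22 members and above them in 2, against 18.7% and 18.6% of all tested probes. At least 2-fold lower in GDF15 cultures were Ddit4 at -1.26 (SE 0.077, adjusted p = 6.63e-10) and Creld2 at -1.01 (SE 0.097, adjusted p = 2.1e-07), as were 3.26% of all tested probes, and 0 members were at least 2-fold higher, against 4.02%.

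Next in size were Shmt2 at -0.98 (SE 0.12, adjusted p = 3.61e-06), Pdia6 at -0.95 (SE 0.12, adjusted p = 5.16e-06) and Psat1 at -0.89 (SE 0.089, adjusted p = 3.29e-07). The 7 members that did not pass were Atf6, Xbp1, Ddit3, Herpud1, Syvn1, Sec24d and Phgdh. Edem1, at -0.37 (SE 0.14, adjusted p = 0.0424), passed with overlapping arrays and lost the call in 4 of the other settings and with any of 8 arrays left out. The Sel1l call was lost with the mean of its probes (0.10, adjusted p = 0.382) and without CCN2 replicate 1 (0.24, adjusted p = 0.0507). Atf4, Sdf2l1 and Derl2 lost it under median scaling (adjusted p = 0.0798, 0.0937 and 0.152). Under that scaling the median of all tested probes was 0.12 and that of the members -0.34. Then 20 members were lower and 2 higher, against 11.3% and 29.1% of all tested probes.

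Of the 33 members 15 had more than 1 tested probe. For CCN2 against control all probes gave 1 call in 13 of these members, and the probes differed in 2, Sec24d and Sel1l. The 13 include Sesn2, whose second probe passed the filter only with the CCN2 arrays, where it is high. Pdia6 and Mthfd2 kept their call with unlike sizes, as the differences of their probes ran between 0.41 and 0.89 and between 0.63 and 0.99. For GDF15 against control the probes gave 1 call in 12 members and differed in 3, Asns, Mthfd2 and Sesn2, where the second probe of Sesn2 was detected on 1 GDF15 array and 0 control arrays. The second probe of Mthfd2 was higher after GDF15 by 0.32 while the brightest, at 0.19, did not pass.

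**Figure D4:**
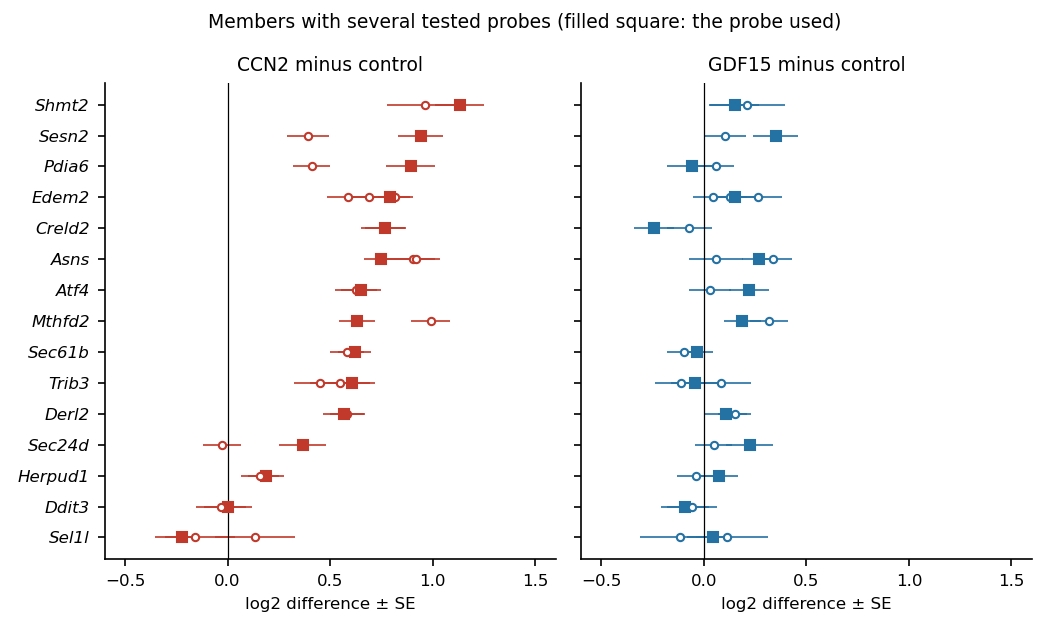
Log2 difference from control (x axis, with the standard error of the fit) of every tested probe of the 15 members with more than 1, for CCN2 (left) and GDF15 (right); filled squares are the probes used and open circles the others. Probes of Atf4, Creld2, Derl2 and Sec61b nearly coincide in the CCN2 panel, while those of Sec24d and Sel1l spread across 0 and those of Pdia6 lie apart. The second probe of Sesn2 was detected on only 4 of the 12 arrays.

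Promoter letters were read for the members because many of them rose together after CCN2. The RefSeq promoter table of GRCm38.p6 held 33 of the 37 members. Derl1, Hyou1, Manf and Atf6 had no match there. Each window ran from 250 bases before to 50 after the gene's start, and both strands were searched. The ER stress response element, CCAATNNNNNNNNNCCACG, is the sequence that ATF6 and XBP1 act through together with the factor NF-Y. It was found in 6 members, Calr, Canx, Creld2, Derl3, Pdia6 and Syvn1, and in 0.137% of 27025 genes. The 4 of these that were measured rose after CCN2 by 0.69, 0.77, 0.89 and 0.46 in Calr, Creld2, Pdia6 and Syvn1. Higher after CCN2 were 81.8% of the measured members and 24.9% of all tested probes, so no link to the element is read. After GDF15 limma called 0 of the 4 measured members with the element, against 20% of all tested probes. Of these 4, 1, Creld2, was lower at an unadjusted p under 0.05 by the probe used.

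The element through which ATF4 acts with C/EBP partners, TGATGNAAT, was in 0 members and 1.08% of genes. A shorter form chosen after that search, TGATGNAA, which the longer form contains, was in Asns, Chac1, Herpud1 and Trib3 and in 4.51% of genes. Asns and Chac1 were higher after both treatments, Trib3 after CCN2, and Herpud1 passed in neither comparison. A second ER stress response element, ATTGGNCCACG, also chosen after the first search, was in Herpud1 and in 0.0444% of genes. A match is a description of letters, not evidence of binding.

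The 250 bases before the start are printed for the 3 members with the largest CCN2 difference among measured members with the first element, and for those with the shorter ATF4 element before the start. They run 5′ to 3′ on the gene's strand, with coordinates on GRCm38.p6, and capitals mark the matches, which are reverse-complemented where the match lies on the other strand. The first 3 show the ER stress response element, which begins 98 bases before the start in Pdia6, 126 in Creld2 and 162 in Calr.
Pdia6, chr12:17266339-17266588, plus strand: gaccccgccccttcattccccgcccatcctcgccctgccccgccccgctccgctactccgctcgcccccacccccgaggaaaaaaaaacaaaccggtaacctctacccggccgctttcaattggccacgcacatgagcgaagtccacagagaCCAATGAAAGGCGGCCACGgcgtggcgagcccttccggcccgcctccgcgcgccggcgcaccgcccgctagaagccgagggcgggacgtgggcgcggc
Creld2, chr15:88819396-88819645, plus strand: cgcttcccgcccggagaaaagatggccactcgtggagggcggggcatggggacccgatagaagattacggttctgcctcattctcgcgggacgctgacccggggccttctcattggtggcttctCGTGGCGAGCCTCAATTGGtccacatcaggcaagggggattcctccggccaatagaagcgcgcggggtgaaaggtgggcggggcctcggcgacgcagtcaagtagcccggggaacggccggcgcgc
Calr, chr8:84846932-84847181, minus strand: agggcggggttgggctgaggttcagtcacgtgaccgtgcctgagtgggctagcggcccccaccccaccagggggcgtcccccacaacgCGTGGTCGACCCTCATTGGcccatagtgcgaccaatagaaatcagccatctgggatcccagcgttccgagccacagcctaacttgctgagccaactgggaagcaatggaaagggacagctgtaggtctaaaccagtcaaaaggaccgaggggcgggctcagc
The next 3 show the shorter ATF4 element, which begins 193 bases before the start in Chac1, 23 in Asns and 112 in Herpud1, and in Herpud1 also the second ER stress response element, which begins 52 bases before it.
Chac1, chr2:119350992-119351241, plus strand: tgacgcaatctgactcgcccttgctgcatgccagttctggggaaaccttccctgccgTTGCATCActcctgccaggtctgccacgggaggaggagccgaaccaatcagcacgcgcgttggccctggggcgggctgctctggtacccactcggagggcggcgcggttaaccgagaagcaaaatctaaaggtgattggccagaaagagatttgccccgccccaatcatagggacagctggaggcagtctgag
Asns, chr6:7693210-7693459, minus strand: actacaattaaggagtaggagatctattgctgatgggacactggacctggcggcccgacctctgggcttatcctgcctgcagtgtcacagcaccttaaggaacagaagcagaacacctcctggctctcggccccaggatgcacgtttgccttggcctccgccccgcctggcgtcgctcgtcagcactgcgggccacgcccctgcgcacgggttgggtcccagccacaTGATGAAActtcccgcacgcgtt
Herpud1, chr8:94386179-94386428, plus strand: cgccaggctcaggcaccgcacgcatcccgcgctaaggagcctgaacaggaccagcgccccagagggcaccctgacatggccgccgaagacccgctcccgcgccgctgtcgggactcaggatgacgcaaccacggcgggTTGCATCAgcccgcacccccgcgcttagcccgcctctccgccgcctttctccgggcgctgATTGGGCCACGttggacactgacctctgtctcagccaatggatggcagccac

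Genes of the same pathways that are no members were read from 3 further lists. These lists and the heat shock list were also chosen with earlier results of these data known. Of 21 measured ER folding genes (24 listed), 14 were higher and 0 lower after CCN2 in the limma fit (16 and 0 at an unadjusted p under 0.05), with a median difference of 0.48. The shares called were 66.7% and 0%, against 24.9% and 26.4% of all tested probes. Fkbp11, a prolyl isomerase of secretory cells, rose by 2.64 (SE 0.098, adjusted p = 4.44e-13), Hspa5, the chaperone BiP, by 1.00 (SE 0.24, adjusted p = 0.00204), Dnajc10, an ER reductase, by 0.99 (SE 0.10, adjusted p = 2.34e-07) and Fkbp14, an isomerase acting on collagens, by 0.88 (SE 0.098, adjusted p = 7.8e-07). After GDF15, 3 of the 21 were higher and 1 was lower, or 14.3% and 4.76%, against 9.34% and 10.7% of all tested probes. Fkbp11 rose by 0.65 (SE 0.098, adjusted p = 0.00011), and the ER membrane transcription factors Creb3l2 and Creb3l1 by 0.42 and 0.32, while the isomerase Fkbp2 was at -0.26 (adjusted p = 0.0368).

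Of 25 measured genes of ER degradation, translocation and transport (28 listed), 17 were higher and 0 lower after CCN2 in the limma fit (18 and 1 at an unadjusted p under 0.05), with a median of 0.40. The shares called were 68% and 0%, against 24.9% and 26.4% of all tested probes. The largest were Ssr2 and Ssr1, subunits of the translocon-associated complex, at 1.48 (SE 0.10, adjusted p = 1.93e-09) and 0.85 (SE 0.11, adjusted p = 5.6e-06), Sec63, a translocation factor, at 1.19 (SE 0.078, adjusted p = 8.95e-10) and Erlec1, an ER lectin, at 0.65 (SE 0.087, adjusted p = 7.01e-06). After GDF15, 1 was higher, Sec63 at 0.39 (SE 0.078, adjusted p = 0.00178), and 0 were lower (3 and 1 at an unadjusted p under 0.05). These are 4% and 0%, against 9.34% and 10.7% of all tested probes.

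The list of integrated stress response genes had 34 measured of 41, including amino acid carriers, aminoacyl-tRNA synthetases and eIF2 kinases. After CCN2, 26 were higher and 2 lower, with a median of 0.44. The shares called were 76.5% and 5.88%, against 24.9% and 26.4% of all tested probes. Slc7a11, the cystine carrier, was at 5.20 and Vldlr, a lipoprotein receptor, at 1.61 (SE 0.10, adjusted p = 7.01e-10). Cth, which makes cysteine from cystathionine, was detected on all 4 CCN2, 3 GDF15 and 0 control arrays. It passed the filter only with the CCN2 arrays, and its bound there, at least 2.75-fold above control, is a description. Without it 25 of 33 were higher and 2 lower. Aldh1l2, a mitochondrial folate enzyme, was at 1.17 (SE 0.099, adjusted p = 2.56e-08). The 2 lower genes were Atf3, a factor induced by ATF4, at -0.66 (SE 0.11, adjusted p = 0.000111) and Shmt1, the cytosolic counterpart of SHMT2, at -0.59 (SE 0.11, adjusted p = 0.000231).

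After GDF15, 9 of these 34 were higher and 1 lower, with a median of 0.13. The shares called were 26.5% and 2.94%, against 9.34% and 10.7% of all tested probes. Slc7a11 was at 1.30 (SE 0.10, adjusted p = 7.33e-08), Eif2ak2, the kinase PKR that responds to double-stranded RNA, at 0.79 (SE 0.11, adjusted p = 4.75e-05) and Cebpb, a partner of ATF4, at 0.78 (SE 0.079, adjusted p = 1.41e-06). Shmt1 was at -0.53 (SE 0.11, adjusted p = 0.0021), and Slc1a4, a carrier of neutral amino acids, was higher by 0.53 (SE 0.10, adjusted p = 0.00134). In CCN2 cultures Eif2ak2 and Cebpb were at 1.01 and 1.05.

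Heat shock genes, which answer to another stress regulator, were read for comparison, with 12 measured of 13. The list holds cytosolic chaperones and also Hspd1 and Hspe1, which encode mitochondrial chaperonins. After CCN2, 8 were higher and 2 lower (66.7% and 16.7%, median 0.43), against 24.9% and 26.4% of all tested probes. Among them were the inducible HSP70 genes Hspa1b at 1.11 (SE 0.17, adjusted p = 3.02e-05) and Hspa1a at 0.86 (SE 0.11, adjusted p = 2.68e-06), Hsp90aa1 at 0.95 (SE 0.15, adjusted p = 4.78e-05) and the small heat shock gene Hspb1 at -0.79 (SE 0.081, adjusted p = 2.71e-07). After GDF15, 1 was higher, Hspa1b at 0.65 (SE 0.17, adjusted p = 0.0116), and 0 were lower (3 and 1 at an unadjusted p under 0.05). These are 8.33% and 0%, against 9.34% and 10.7% of all tested probes. Under median scaling the counts after CCN2 were 9 higher and 2 lower of the 21 ER folding genes, 9 and 2 of the 25 degradation and transport genes, 18 and 3 of the 34 integrated stress response genes and 4 and 2 of the 12 heat shock genes, with medians between 0.22 and 0.31. With that scaling 14% of all tested probes were higher and 38.4% lower after CCN2. The difference between the members and these lists was not tested.

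**Figure D5:**
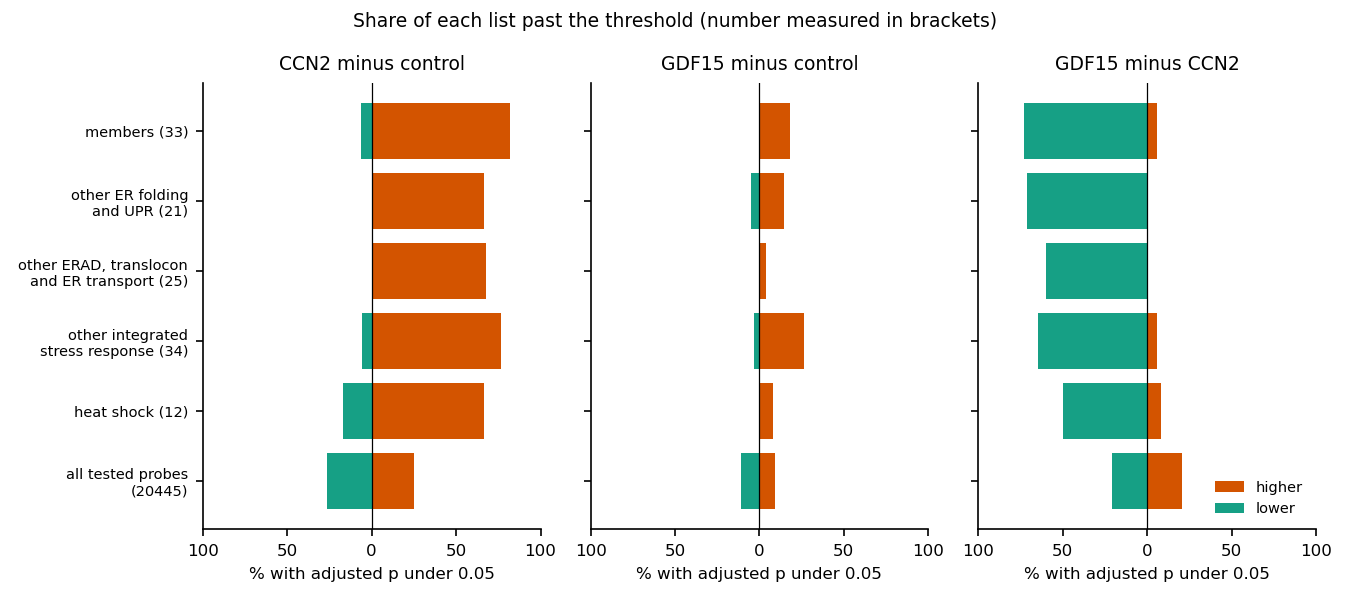
Share of each list with an adjusted p under 0.05 (x axis in %, higher to the right, lower to the left, number of measured genes or probes in brackets), for the 33 members, 4 other lists and all tested probes in 3 comparisons. For CCN2 minus control the members stand at 81.8% higher and 6.06% lower, against 24.9% and 26.4% of all tested probes, and for GDF15 minus control at 18.2% higher and 0% lower.

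Markers of cell types were read beside the members, as the cultures are bulk samples. All 10 fibroblast markers, among them Col1a1, Col1a2, Dcn and Pdgfra, were detected on every array. Lower after CCN2 were Tcf21, a fibroblast transcription factor, at -2.69, Lum, a matrix proteoglycan, at -2.02, Thy1 at -1.55, Vim at -0.70 and Col3a1 at -0.40 on the log2 scale. After GDF15 Lum was lower at -0.89 and Thy1 at -0.62. The summed normalized intensity of the 10 markers ran between 41430 and 44230 on CCN2, 48750 and 58220 on GDF15 and 51780 and 55350 on control arrays, with 5 of 10 lower after CCN2 and 2 of 10 lower after GDF15. The brightest probes weigh most in this sum, here Dcn and Col3a1, with control means of 14.13 and 13.38 on the log2 scale. Of 9 measured macrophage markers 8 were lower after CCN2 and 5 after GDF15, against 26.4% and 10.7% of all tested probes. Adgre1 lay above control without passing, at 0.24 after CCN2 (adjusted p = 0.0583) and 0.28 after GDF15 (adjusted p = 0.0726). Lyz2, Fcgr3 and Ptprc did not pass after GDF15 either, at 0.09, 0.08 and -0.27. The sum of the 9, in which Lyz2 is the brightest, ran between 9961 and 11160 on CCN2, 28080 and 30230 on GDF15 and 32250 and 35700 on control arrays. C1qa, C1qb, C1qc, Csf1r, Adgre1, Mrc1, Fcgr3, Lyz2 and Ptprc were detected on every array of each group.

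Endothelial markers were also lower after CCN2 in 6 of 7 and higher in 1, Eng, with sums of 2126 to 2370 on CCN2, 3025 to 3218 on GDF15 and 3099 to 3489 on control arrays, and after GDF15 1 of 7 was lower. Of all tested probes 26.4% were lower after CCN2 and 10.7% after GDF15. Pericyte and smooth muscle markers were lower in 6 of 7 after CCN2 and 4 of 7 after GDF15, with sums of 449.2 to 524 on CCN2, 753.9 to 868.3 on GDF15 and 1147 to 1238 on control arrays. Rgs5 was detected on no CCN2 array and Cnn1 on no array. Of 7 cardiomyocyte markers with a probe, 3 were measured, and all 3 were lower after CCN2, with sums of 135 to 160.9 on CCN2, 284.1 to 356.2 on GDF15 and 336.2 to 433.9 on control arrays. Myh6, Tnni3, Myl7 and Ttn were each detected on at most 3 arrays. The part of these marker shifts and of the lower number of detected probes on the CCN2 arrays in the members' differences was not tested.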

How the data were processed

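Members and comparison lists were chosen with earlier results of these data known. The deposited non-normalized table holds intensities and detection p-values of 45281 probes on 12 arrays, per the file headers, and the intensities come from GenomeStudio 2010.1, per the submitters' processing notes. The authors' second deposited table holds intensities that match a quantile normalization of the first within 0.392% and served as an alternative. Intensities were background-corrected with normexp from the detection p-values, quantile-normalized and taken to log2 with an offset of 16 (neqc, limma 3.58.1, R 4.3.3). The offset shrinks differences of dim probes. Tested were 20445 probes, each detected (p-value under 0.05) on 4 or more arrays. They were fitted with lmFit and eBayes over all 12 arrays, which leaves 9 residual degrees of freedom. Adjustment was by Benjamini-Hochberg over all tested probes of a comparison, two-sided, at 0.05. The same steps were tested on simulated data. Groups came from the treatment label, and replicates are numbered 1 to 4 in a group by deposit order.

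Per-array values were printed for members that passed with at least a 2-fold difference from control and for the sensors and transcription factors. They were also printed for Pdia6, Creld2, Manf, Sel1l, Herpud1, Sesn2, Asns and Phgdh, which were chosen after their values were seen. Named from each further list were up to 4 genes past the threshold, by size, and also, chosen after their values were seen, Atf3 and Shmt1 after CCN2, Shmt1 after GDF15, and Hspd1 and Hspe1 for their place in the cell. Symbols came from the platform annotation, where 34885 probes have 1 symbol, 18 several and 10378 none. The RefSeq table of GRCm38.p6 held 34807 of those with 1 symbol, and none changed. The build behind the probe design is not given in the sources used here. Where no array of a group detected a probe, its level there was bounded by the lowest detected signal. Alternatives were median scaling, the authors' values, an offset of 50, no and a stricter detection filter (p under 0.01 on all arrays of a group), a trended prior, fits on 2 groups, gene means over probes, a block for odd and even title numbers, and leaving out each array. Both added promoter motifs were chosen after the first search, and a count over probes that pass the filter without the CCN2 arrays was added after the data were seen.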

Additional observations from a re-analysis of the deposited data

Results flagged for a closer look

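In 4 of 99 sets of 4 arrays (33 members in 3 groups), 1 array stood apart, with a gap to its nearest neighbour that, as a share of the whole range, was above the critical value of Dixon for 4 values. Chance gives this in about 1 in 20 sets. For Xbp1, CCN2 replicate 4 had a log2 value of 11.29 and the others 11.00 to 11.01, a gap of 0.956 of the range. For Sesn2 the same array had 6.85 and the others 6.49 to 6.54, a gap of 0.87 of the range. In Derl2, CCN2 replicate 2 was low at 8.31, with the others at 8.57 to 8.61 and a gap of 0.853 of the range. In Manf, GDF15 replicate 4 was high at 5.15, with the others at 4.43 to 4.53 and a gap of 0.858 of the range.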

How the results depend on the processing

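The count of members higher after CCN2 was 27 and ran between 23 and 28 over the other settings and between 24 and 29 with 1 array left out. Of its 29 calls, 24 held under every setting tried. Those lost somewhere were Xbp1, Sel1l, Derl2, Sec24d and Phgdh, and those gained Edem1, Herpud1 and Atf6. The count lower after CCN2, 2, was 1 with the mean of a gene's probes and between 1 and 2 with 1 array left out. The count higher after GDF15, 6, was 3 under median scaling, between 3 and 8 over all other settings, and between 2 and 7 with 1 array left out, with Phgdh, Mthfd2 and Creld2 gained somewhere and 2 of the 6 calls held throughout. The count lower after GDF15, 0, was between 0 and 1 with 1 array left out. For GDF15 against CCN2 the count higher, 2, was 1 with the mean of a gene's probes and between 1 and 2 with 1 array left out, and the count lower, 24, ran between 20 and 25, with 21 of 26 calls held throughout. Differences changed sign 29 times, in 11 members, and each time were below the threshold on both sides. No call reversed under any alternative. With an odd or even title number as a block, 28 members were higher and 2 lower after CCN2, and 6 and 0 after GDF15. Of all tested probes 25.8% and 27.2% were then called after CCN2, and 10.4% and 11.5% after GDF15. Over the 32 members that pass the detection filter without the CCN2 arrays, a choice made after seeing the data, 26 were higher and 2 lower after CCN2. Of the 19300 probes that pass it, 24.4% were higher and 27.9% lower. No paired analysis was possible because the numbers in the titles run on from group to group and none is shared between groups. The cause of these shifts was not tested. Signal over background limits Atf6 and Manf, which were detected on 4 and 7 of the 12 arrays.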
